A study of Mus musculus with 2 samples.

Results

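The core spliceosome genes described here are the protein-coding genes whose symbol begins with Snrp, Sf3a, Sf3b, Lsm and a digit, Prpf or U2af and that had reads in both libraries, Snrpn left out. The rule found 49 genes among 18311 known genes with reads, of which 14789 were protein-coding. All 49 protein-coding genes of GENCODE M21 that match it, Snrpn apart, had reads in both libraries. The RNA came from the hippocampus (labelled as its layer) of male B6CASTF1/J mice, hybrids of C57BL/6J and CAST/EiJ, at 14 days of age. It was read as long cDNA molecules in 2 libraries, biological replicates 1 and 2 of a single group, each from 3 pooled males and 2 µg of RNA. There was no treated, mutant or older group, and the deposited values do not separate the C57BL/6J allele from the CAST/EiJ allele. The labels disagree on whether the libraries came from different animals, so the spread between them may be technical, and p-values measure only that spread against counting error.

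The spliceosome removes introns from new transcripts. Small nuclear RNAs carry it: Sm proteins form a ring on U1, U2, U4 and U5 RNA, and LSm proteins form a similar ring on U6 RNA. U1 recognises the 5′ end of the intron, U2AF and the SF3A and SF3B subcomplexes of U2 recognise the branch point and the 3′ end, and the U4/U6.U5 tri-snRNP with its PRP proteins then builds the catalytic core. Several of these proteins are made from transcripts that are themselves alternatively spliced, and the sequences of those alternatives come first.

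U2af1 encodes the small subunit of U2AF, which reads the last bases of the intron. Its transcripts carried one of a pair of alternative coding exons, each 67 bases long, at chr17:31652502-31652568 (upstream) and chr17:31651646-31651712 (downstream) on the minus strand of mm10. The pair had the same base at 44 of 67 positions (65.7%), and the capitals mark the 23 positions that differ. All sequences here are written 5′ to 3′ and come from GENCODE M21 transcripts.
U2af1 upstream exon: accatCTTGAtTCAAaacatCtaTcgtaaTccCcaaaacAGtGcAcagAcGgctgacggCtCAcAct
U2af1 downstream exon: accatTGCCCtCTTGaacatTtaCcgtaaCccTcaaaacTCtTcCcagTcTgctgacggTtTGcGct

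Prpf18 encodes a factor of the second catalytic step. An exon of 27 bases (chr2:4648097-4648123, minus strand), which GENCODE M21 lists only outside a coding sequence, was present in many of its reads. Some other alternatives moved an exon edge by a few bases, among them 12 bases of U2af2 (chr7:5075228-5075239, plus strand), 19 bases of Sf3a2 (chr10:80803801-80803819, plus strand), 12 bases of Prpf40b (chr15:99315570-99315581, plus strand) and 3 bases of Sf3b2 (chr19:5288411-5288413, minus strand). Capitals mark the bases that are present in some reads and absent from others, and lower case marks the exon sequence on either side.
Prpf18: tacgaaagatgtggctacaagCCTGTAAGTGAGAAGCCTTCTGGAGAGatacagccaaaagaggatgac
U2af2: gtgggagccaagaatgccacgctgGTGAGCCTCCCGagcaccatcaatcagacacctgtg
Sf3a2: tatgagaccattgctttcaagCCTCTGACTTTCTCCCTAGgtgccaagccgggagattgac
Prpf40b: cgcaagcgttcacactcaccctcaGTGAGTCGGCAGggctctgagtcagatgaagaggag
Sf3b2: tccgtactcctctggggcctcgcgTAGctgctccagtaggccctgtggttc

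The variable bases of U2af2 and Prpf40b begin with GT, the letters that open an intron, and those of Sf3a2 and Sf3b2 end with AG, the letters that close one. The 12-base and 3-base segments keep the reading frame, and the 19 bases of Sf3a2 do not. Whole introns were also kept in reads of Sf3b1 (1813 bases, chr1:55014563-55016375, minus strand) and Snrpa1 (592 bases, chr7:66069527-66070118, plus strand). Their ends are shown because they hold the splice sites that those reads did not use, with the intron in capitals.
Sf3b1 intron, 5′ end: tgcagatgGTAATTCTTTCCCACTTTTC
Sf3b1 intron, 3′ end: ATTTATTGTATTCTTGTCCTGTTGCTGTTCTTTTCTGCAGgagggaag
Snrpa1 intron, 5′ end: aactcaaaGTGAGTATTGCGCACTGCTG
Snrpa1 intron, 3′ end: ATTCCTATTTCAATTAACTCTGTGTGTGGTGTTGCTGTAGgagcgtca

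Both introns open with GT and close with AG. In the 20 bases before the last 5 of the intron, C or T made up 80% in Sf3b1 and 55% in Snrpa1.

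The libraries held 821324 and 743862 mouse reads, and a count of 0 allows up to 3 reads, or 3.65 and 4.03 reads per 1000000 mouse reads (CPM). Hippocampal excitatory neuron markers had reads for 6 of 6 genes, with Slc17a7 at 1282 CPM, whereas the liver gene Alb had 0 reads and the muscle gene Ckm had 0 and 1. Oligodendrocyte markers summed to 5708 CPM in replicate 1 and 2855 CPM in replicate 2, and 5 of 5 tested were called lower in replicate 2, where 0.834% of all genes tested were called lower and 0.744% higher. The choroid plexus gene Ttr (194 and 87.4 CPM, adjusted Fisher's exact p = 6.30e-06) and the astrocyte gene Aldoc (adjusted exact p = 7.35e-05), 1 of 4 astrocyte markers tested, were also called lower in replicate 2. In whole tissue, fewer cells of a type and less RNA per cell cannot be told apart. The part of these differences in the values below was not tested. One long read stands for one cDNA, so CPM was not divided by transcript length. How well long and short cDNAs were recovered was not tested.

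The 49 genes had 2018 reads in replicate 1 and 1886 in replicate 2, or 2457 and 2535 CPM summed (2496 ± 55.4, SD, n = 2). The median gene had a mean of 35.7 CPM, against 18.5 for all protein-coding genes with reads. Of the 49 genes, 40 lay above that median, but only 2 (Sf3b2 and Snrpb) lay in the top 10% of protein-coding genes. Most were therefore expressed at a middling level: 15 were above 50 CPM, 24 were between 20 and 50, and 10 were under 20. They lie on 15 autosomes, and none is on the X or Y chromosome. Snrpn, which encodes the brain form of the Sm protein made by Snrpb and which the rule leaves out, had 1486 and 1125 reads, 1661 ± 210 CPM.

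**Figure D1:**
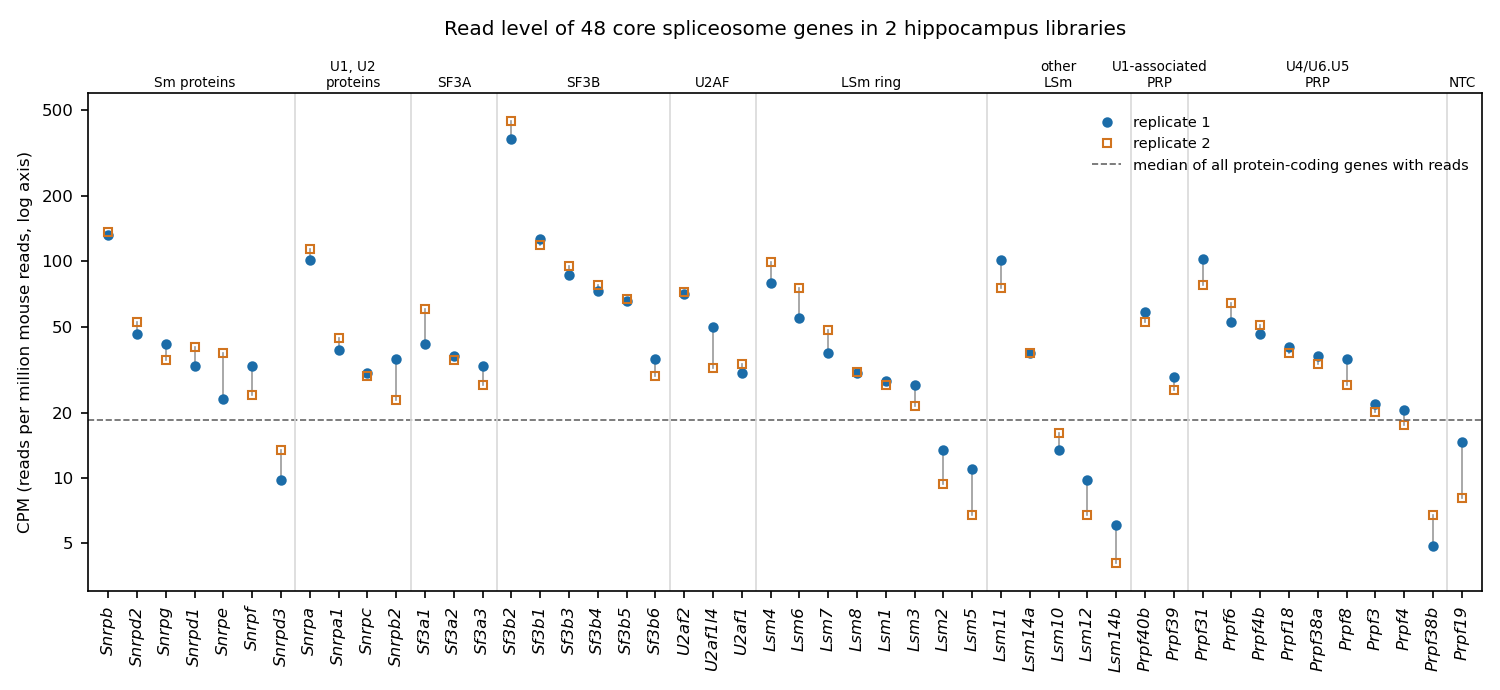
Level of 48 of the 49 genes in CPM (log axis) in replicate 1 (filled circles) and replicate 2 (open squares), grouped by role, with a line joining the libraries and a dashed line at the median of all protein-coding genes, 18.5 CPM. Sf3b2 stands above the other genes in both libraries, at 366 and 445 CPM, and in most roles the genes spread more widely than the libraries do.

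The Sm ring holds a single copy of each of its proteins, but their transcripts were not equally abundant. Snrpb (chr2:130171414-130179403, minus strand), which encodes SmB, had 133 and 137 CPM from 109 and 102 reads. Snrpd2 followed with 46.3 and 52.4 CPM. Snrpg, Snrpd1, Snrpe and Snrpf had means of 38.2, 36.6, 30.4 and 28.5 CPM, and these neighbours in the order overlapped between libraries. Snrpd3 was lowest, with 8 and 10 reads (11.6 ± 2.62 CPM, SD, n = 2), below every other Sm gene in both libraries. Together the 7 genes summed to 330 ± 14.9 CPM.

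Among the proteins particular to U1 and U2, Snrpa, whose product binds a loop of U1 RNA, had 101 and 114 CPM (83 and 85 reads; chr7:27187005-27196271, minus strand). It was above the other 3 genes of its group in both libraries. Snrpa1 and Snrpb2, which encode partner proteins on U2 RNA, had 41.7 ± 3.82 and 29.1 ± 8.81 CPM, and Snrpc, of U1, had 30.0 ± 0.610 CPM.

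SF3B, which clamps the branch point, was the most abundant group, with 6 genes summing to 794 ± 57.4 CPM. Sf3b2 (chr19:5273932-5295455, minus strand) accounted for 301 and 331 of its 619 and 621 reads. Sf3b1, whose product forms the ring-shaped scaffold around the branch point, had 127 and 120 CPM (104 and 89 reads; chr1:54985169-55027481, minus strand). Sf3b3, a large scaffold protein of the complex, had 86.4 and 95.4 CPM (71 reads in each; chr8:110810239-110846787, minus strand). Sf3b4, which has RNA recognition motifs, had 73.1 and 78.0 CPM (chr3:96172332-96177564, plus strand), and the single-exon gene of the small subunit Sf3b5 had 65.7 and 67.2 CPM (chr10:13005343-13009183, plus strand). Sf3b6 was lowest at 32.4 ± 4.05 CPM. The libraries did not overlap for Sf3b2 against any other SF3B gene. The 3 SF3A genes summed to 117 ± 8.16 CPM, with Sf3a1 at 50.9 ± 13.5, Sf3a2 at 35.7 ± 1.11 and Sf3a3 at 29.9 ± 4.23 CPM.

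In U2AF, the large subunit gene U2af2, whose product binds the pyrimidine tract, had 70.6 and 72.6 CPM (58 and 54 reads; chr7:5062143-5079938, plus strand). It was above U2af1 (30.4 and 33.6 CPM) in both libraries. U2af1l4, a relative of the small subunit, had 49.9 and 32.3 CPM. Another protein-coding gene, Gm49396, overlaps U2af1l4 on the same strand and held 3 and 7 reads over its exons, so the split of reads between these genes is uncertain.

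The LSm ring of U6 is built from Lsm2 to Lsm8, and Lsm1 takes the place of Lsm8 in the ring that acts in mRNA decay. Lsm4 (79.1 and 99.5 CPM; chr8:70673248-70678752, plus strand) and Lsm6 (54.8 and 75.3 CPM; chr8:78804865-78821140, minus strand) were highest. Lsm5 was lowest, with 9 and 5 reads (8.84 ± 3.00 CPM; chr6:56701063-56704710, minus strand), and its libraries overlapped those of Lsm2 (11.4 ± 2.82 CPM). Lsm1 and Lsm8 had 27.4 ± 0.790 and 30.7 ± 0.340 CPM, so the genes that tell the rings apart were at similar levels. Lsm7 had 31 and 36 reads (43.1 ± 7.53 CPM), but its processed pseudogenes Gm10146 and Gm13182 held another 24 and 33 reads, and with those added its level was 79.9 ± 18.2 CPM. The level of Lsm7 is therefore uncertain by the choice of which copies to count. Similar copies of Snrpg, Snrpd1, Snrpf and U2af1 held at most 3 reads in a library. The 3 pseudogenes whose own names match the rule (Snrp1c-ps1, Snrp1c-ps2 and Snrpert) had no reads.

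Outside that ring, Lsm11, a protein of the U7 particle that matures histone mRNA, had 101 and 75.3 CPM (83 and 56 reads; chr11:45928269-45944935, minus strand), whereas its U7 partner Lsm10 had 14.8 ± 1.94 CPM. The libraries of these genes did not overlap. Of the Lsm11 reads, 20 and 12 lay on genomic models, a class given below for all members. With that class left out, Lsm11 had 67.9 ± 12.4 CPM and Lsm10 stayed at 14.8 ± 1.94 CPM. Lsm14a, which acts in mRNA storage granules, had 37.7 ± 0.0725 CPM. Its relative Lsm14b had the fewest reads of all, 5 and 3 (5.06 ± 1.45 CPM; chr2:180024987-180035465, plus strand), and Lsm12 had 8 and 5 (8.23 ± 2.13 CPM; chr11:102162497-102185296, minus strand).

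Among the PRP proteins of the tri-snRNP, Prpf31, which bridges U4/U6 to U5, was highest with 102 and 78.0 CPM (84 and 58 reads; chr7:3629985-3642486, plus strand). Prpf6, another bridging protein, had 58.4 ± 8.61 CPM, and the kinase gene Prpf4b had 48.7 ± 3.41. Prpf8, the large protein at the catalytic centre, had 29 and 20 reads (31.1 ± 5.96 CPM). Prpf3 and Prpf4, which bind each other on U4/U6, were close together at 21.04 ± 1.24 and 19.1 ± 2.28 CPM, and Prpf38b was lowest with 4 and 5 reads (5.80 ± 1.31 CPM; chr3:108902805-108911727, minus strand). Models on the opposite strand held 32 and 43 reads over the exons of Prpf38b, and 8 and 16 over those of Lsm12, and are not counted in these levels. With annotated transcripts only, Prpf8 had 3 and 1 reads (2.50 ± 1.63 CPM) and Prpf38b had 2 and 4 (3.91 ± 2.08 CPM). On these few reads the order of the genes differed between the libraries.

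Of the genes whose products associate with U1, Prpf40b had 48 and 39 reads (55.4 ± 4.25 CPM), and Prpf39 had 27.4 ± 2.60 CPM. With annotated transcripts only, these means were 0.672 and 2.63 CPM, so their order rests on reads of other models. Prpf19, the ubiquitin ligase of the complex that joins before catalysis, had 12 and 6 reads (11.3 ± 4.63 CPM; chr19:10895231-10909559, plus strand).

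Between the libraries, 41 of the 49 genes had the 20 reads over both that the test required, and 8 did not, among them Snrpd3, Lsm2, Prpf19, Lsm5, Lsm12, Prpf38b and Lsm14b. None of the 41 was called at an adjusted p under 0.05 (Fisher's exact test, two-sided, Benjamini-Hochberg over 8875 genes), where 1.58% of all genes tested were. At an unadjusted p under 0.05 there was 1 of 41, against 10.3% of all genes. That gene was Sf3b2, higher in replicate 2 by a log2 ratio of 0.28 (exact p = 0.0151, adjusted p = 0.292). No tested member reached a 2-fold difference, and the median absolute log2 ratio was 0.19, against 0.25 over all protein-coding genes tested. Among the 41 genes tested, the widest ratios were 0.69 for Snrpe (19 and 28 reads) and −0.62 for U2af1l4 (41 and 24 reads), neither called. Among those not tested, Prpf19 (12 and 6 reads) was at −0.80.

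**Figure D2:**
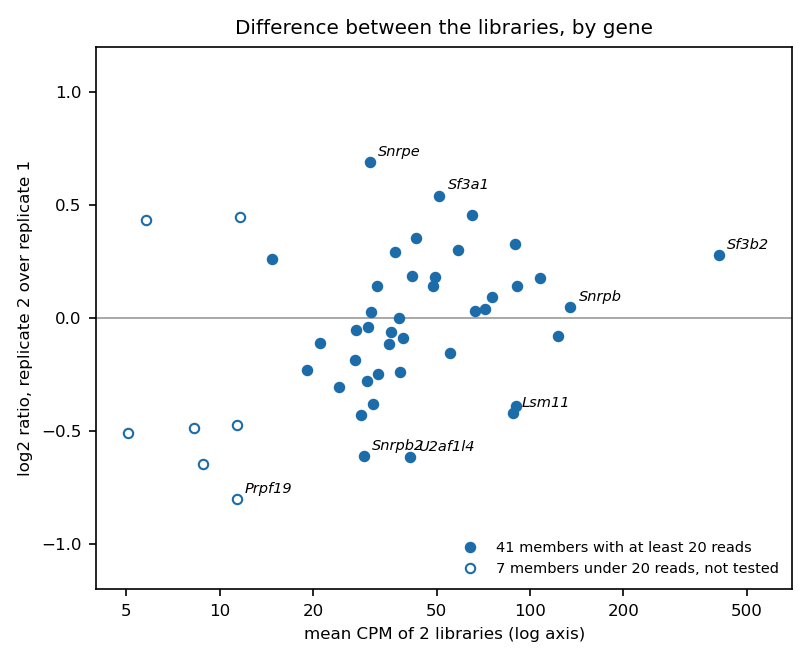
Log2 ratio of replicate 2 over replicate 1 (vertical axis) against mean CPM (log axis) for the 41 genes tested (filled) and 7 of the 8 with under 20 reads (open). Points lie on both sides of 0, and the widest ratio drawn is that of Prpf19 at −0.80, from 12 and 6 reads.

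The other spliceosome genes were counted in 5 lists, and no gene was called between the libraries in any of them, although 1 minor-spliceosome gene and 1 assembly gene had an unadjusted exact p under 0.05. Of the other U4/U6.U5 and U1 proteins, 15 of 15 had reads (median 52.7 CPM), led by the U5 GTPase Eftud2 (167 ± 26.1), the U4 protein Snu13 (131 ± 16.4) and Sart1 (82.9 ± 5.04), which acts in tri-snRNP assembly. The branch point and U2 partners had a median of 55.2 CPM, led by Puf60 (351 ± 9.76), a U2AF-related splicing factor, the helicase Ddx39b (214 ± 30.2) and Htatsf1 (72.5 ± 9.59). The complex around Prpf19 and the step factors had a median of 40.5 CPM, led by Bcas2 (129 ± 6.30), Snw1 (75.9 ± 4.63) and Rbm22 (72.5 ± 9.59). The SMN complex and assembly genes had a median of 26.1 CPM, led by Strap (217 ± 31.8), Clns1a (101 ± 22.8) and the methyltransferase Prmt5 (91.2 ± 3.55), which modifies Sm proteins. The minor spliceosome, which removes a rare class of introns, had a median of 26.2 CPM, led by Zcrb1 (79.5 ± 11.6), Zrsr2 (44.8 ± 3.13) and Pdcd7 (37.3 ± 10.9). The highest of these medians was 55.2 CPM and the lowest 26.1 CPM, with the median of the 49 genes between them.

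Each read was assigned to a model class by the authors. Annotated transcripts took 74.0% ± 0.495 (SD, n = 2) of the reads of the 49 genes and 71.5% ± 1.12 of those of all protein-coding genes. New combinations of known splice sites took 8.40% ± 0.178 against 6.81% ± 0.0649, and new splice sites 3.94% ± 0.101 against 4.19% ± 0.00908. Incomplete matches, which are part of an annotated transcript, took 10.8% ± 1.19 against 10.7% ± 0.261, and genomic models 2.92% ± 0.973 against 6.77% ± 0.938. The classes were thus divided much as in other genes, apart from genomic models and new combinations. Genomic reads were fewer in both libraries (2.23% and 3.61% against 6.11% and 7.44%). Reads of new combinations were somewhat more in both (8.52% and 8.27% against 6.86% and 6.77%). No test of these differences was made, and without the 3 most abundant members the share of new combinations was 7.89%.

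Single genes departed widely from that average. Sf3b5, Snrpd3 and Lsm12 had every read on an annotated transcript, whereas Lsm14b had none on one. Prpf8, with 42 exons in a transcript of 7442 bases, had 3 of 29 and 1 of 20 reads on an annotated transcript, and 87.8% of its reads were incomplete matches. Prpf40b had 0 and 1 of its 48 and 39 reads on an annotated transcript (1.15%), and Prpf39 had 1 of 24 and 3 of 19 (9.30%), but in these genes the reads lay mostly on new combinations. Among genes with a longest coding transcript of 3000 bases or more, the 14 tested members had a median annotated share of 70.0%, against 89.9% for the 10 members of 1000 bases to under 2000 bases. All protein-coding genes in the same classes had medians of 61.8% and 82.8%. The members under 1000 bases had a median of 85.3%, and those of 2000 to under 3000 bases 82.6%. The class of 3000 bases or more thus had the lowest median in both sets, but members did not fall steadily with length. Within that class, members ranged from 1.15% to 100%.

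**Figure D3:**
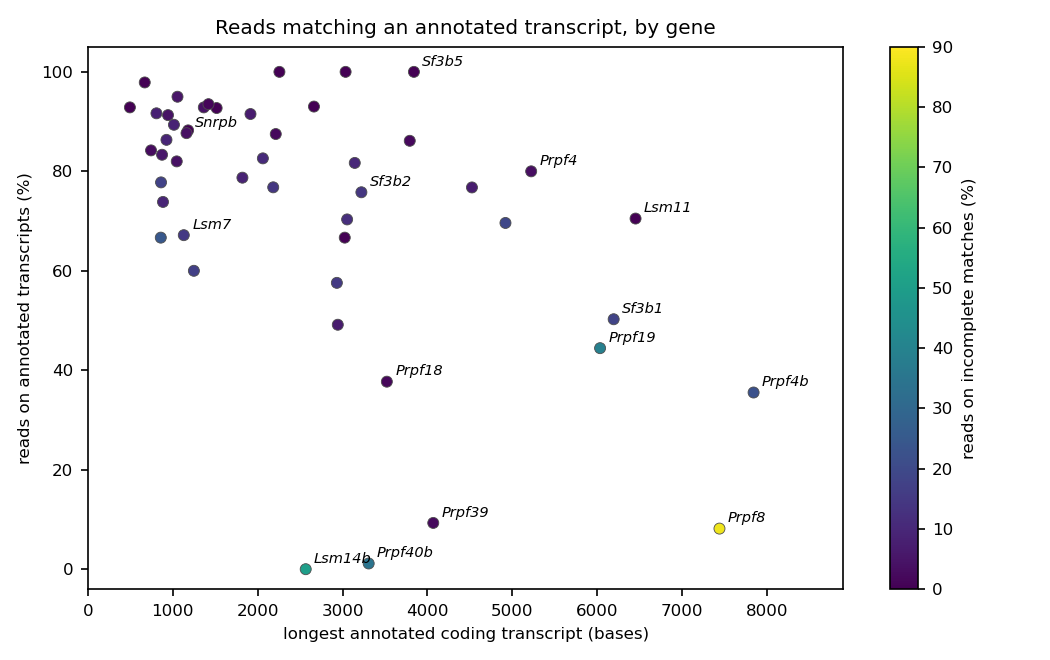
Share of a gene's reads on annotated transcripts (vertical axis, %) against the length of its longest annotated coding transcript (bases), 1 point for each of 48 genes over both libraries, coloured by the share on incomplete matches. Prpf8 is low with 87.8% incomplete reads, whereas Prpf40b at 1.15% and Prpf39 at 9.30% are low with 34.5% and 2.33% incomplete reads.

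An isoform was counted when it had at least 5 reads over both libraries and 10% of its gene's reads, incomplete and genomic models apart. Of 29 members with 20 such reads in each library, 12 had 2 or more isoforms (41.4%), against 36.7% of 4864 protein-coding genes. They were Lsm14a, Lsm6, Lsm7, Prpf18, Prpf31, Prpf4b, Sf3a2, Sf3b1, Snrpa, Snrpa1, U2af1 and U2af2. Their isoform shares were called different between the libraries in 0 of 12, where 0.727% of 1787 genes were. Of the 12, 2 had an unadjusted p under 0.05, where 112 of the 1787 genes did. They were Lsm14a (exact p = 0.00584, adjusted 0.411) and Snrpa (simulated chi-square p = 0.0366, adjusted 0.733).

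Internal exons were rarely variable. Among 256 internal exons with 20 reads in each library, 8 had a mean inclusion of 5% to 95% (3.13%), against 5.04% of 44603 exons of all protein-coding genes. They lay in Lsm14a, Lsm6, Prpf18, Sf3b1 and U2af1, and 0 of 8 were called between the libraries, where 0.0445% of 2248 variable exons were. At an unadjusted exact p under 0.05 there was 1, the 57-base exon of Lsm14a, and the matching share over all variable exons was not counted.

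In U2af1, the downstream exon of the pair was in 87.0% of spanning reads from replicate 1 and 75.0% of those from replicate 2, with Wilson 95% intervals of 67.9% to 95.5% and 53.1% to 88.8%. The upstream exon was in 13.0% (4.54% to 32.1%) and 15.0% (5.24% to 36.0%). Read by read, 19 and 15 molecules carried only the downstream exon, and 2 and 3 only the upstream one. The downstream exon was thus the main form in both libraries. A single read carried both exons, in replicate 1, and 1 and 2 reads carried neither. Another exon of U2af1, 88 bases long, was in 95.7% and 85.7% of reads.

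The 27-base exon of Prpf18 was in 15 of 28 reads (53.6%, interval 35.8% to 70.5%) and 14 of 26 (53.8%, 35.5% to 71.2%). The structure that holds it, a combination absent from GENCODE M21, had 15 and 12 reads, and the annotated Prpf18-201 had 12 and 11. The forms were thus about equally common in each library. In Lsm6 an exon of 99 bases outside the coding sequence was in 46.2% (31.6% to 61.4%) and 50% (36.9% to 63.1%) of reads, and Lsm6-201, which lacks it, had 21 and 25 reads where Lsm6-203 had 14 and 24.

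The 57-base exon of Lsm14a was in 25 of 30 reads in replicate 1 (83.3%, 66.4% to 92.7%) and 14 of 25 in replicate 2 (56.0%, 37.1% to 73.3%). The intervals overlap, and the difference had an exact p of 0.0378 and an adjusted p of 1. Only 21 of its 57 bases are coding in Lsm14a-201. Another Lsm14a exon, of 177 coding bases, was in 93.1% and 83.3% of reads. The remaining variable exon, of 56 bases in Sf3b1, was in 6.45% and 3.85%.

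Shifts of an exon edge were found in several genes of U2 and U1. In U2af2 the 12 bases were included in 7 of 47 reads (14.9%, 7.41% to 27.7%) and 11 of 49 (22.4%, 13.0% to 35.9%). In Sf3a2 the 19 bases, which shift the reading frame, were included in 3 of 30 (10.0%, 3.46% to 25.6%) and 3 of 23 (13.0%, 4.54% to 32.1%). These were minor forms in both libraries. In Prpf40b the minor form was that of the only annotated transcript with a read: its 12 bases were absent from 46 of 48 reads (95.8%, 86.0% to 98.8%) and from 33 of 36 (91.7%, 78.2% to 97.1%). In Sf3b2 the 3 bases were absent from 22 of 261 reads (8.43%, 5.63% to 12.4%) and 11 of 287 (3.83%, 2.15% to 6.73%). The difference between the libraries in Sf3b2 was not tested. Snrpa lacked 3 bases of its first exon, outside the coding sequence, in 41.5% and 32.7% of reads. Its 3 counted isoforms were the annotated transcript with those bases, with 37 reads in each library, the annotated transcript without them, with 26 and 16, and one that starts at another first exon, with 13 and 26.

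Kept introns were the other recurrent form. The 1813-base intron of Sf3b1 was kept in 24 of 81 reads (29.6%, 20.8% to 40.3%) and 16 of 66 (24.2%, 15.5% to 35.8%). The commonest such structure was otherwise full length, with 24 exons and 7917 bases, and had 18 and 12 reads where Sf3b1-201 had 48 and 38. In Snrpa1, of U2, the 592-base intron was kept in 8 of 25 (32.0%) and 8 of 27 reads (29.6%), and the next intron, of 391 bases, in 8 of 26 (30.8%) and 8 of 27 (29.6%). A structure that kept both had 5 reads in each library, against 16 and 19 for Snrpa1-206. Thus about the same share of reads held the intron in each library for both genes. In Prpf39 a 648-base intron of the annotated structure was kept in 18 of 20 reads (90%, 69.9% to 97.2%) and 10 of 14 (71.4%, 45.4% to 88.3%), and the commonest structure that kept it had 7 and 5 reads.

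Prpf4b showed the converse. Its annotated transcript ends in a long exon, and in other reads up to 4 introns were removed from within it. The 770-base intron was removed in 14 of 27 reads (51.9%, 34.0% to 69.3%) and 17 of 32 (53.1%, 36.4% to 69.1%), and the structure without all 4 had 6 and 5 reads where Prpf4b-201 had 12 and 14. New structures with at least 5 reads in each library were found in 5 of the 29 members (17.2%: Prpf18, Prpf4b, Sf3b1, Sf3b2 and Snrpa1), against 17.6% of all 4864 genes.

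**Figure D4:**
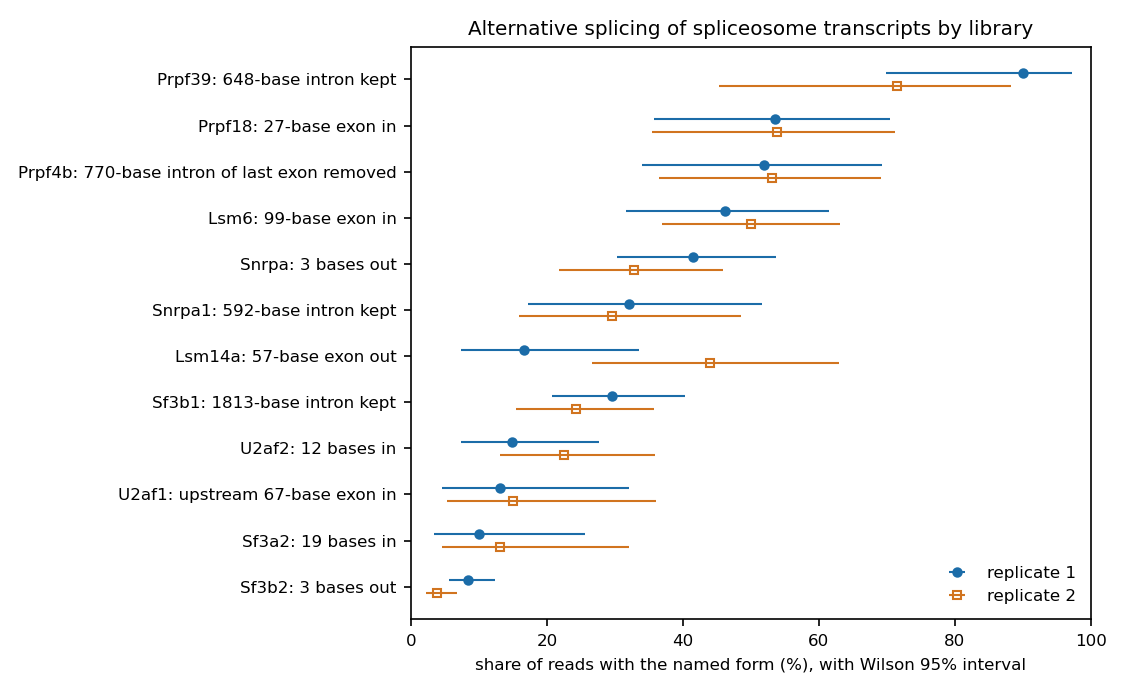
Share of reads with the named form (%) for 12 alternatives, 1 in each of 12 genes, in replicate 1 (filled circles) and replicate 2 (open squares), with Wilson 95% intervals. The intervals of the libraries overlap for every alternative drawn, including the 57-base exon of Lsm14a, absent from 16.7% and 44.0% of reads. Overlap of intervals is not a test of a difference between the libraries.

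Annotated transcripts classed as targets of nonsense-mediated decay, the pathway that destroys mRNA with an early stop, or as retained-intron transcripts held 50 of 1486 annotated reads of the 49 genes in replicate 1 (3.36%, 2.56% to 4.41%) and 26 of 1402 in replicate 2 (1.85%, 1.27% to 2.70%). The mean was 2.61% ± 1.07 (SD, n = 2), against 1.80% ± 0.0472 for all protein-coding genes. Decay transcripts alone held 9 and 5 of these reads, 0.481% ± 0.176 against 0.475% ± 0.0107, so the members were near all genes there. Retained-intron transcripts held 41 and 21 reads, 2.13% ± 0.892 against 1.32% ± 0.0364. The intervals that follow are for the 2 types together. The interval lay above the value of all genes in replicate 1 (1.83%) and covered it in replicate 2 (1.76%). Prpf31 contributed 13 and 9 of these reads, all on Prpf31-205, a short retained-intron transcript of 827 bases, which made up 18.97% of its annotated reads. Sf3b1 had 8 and 3 (11.3%), U2af1l4 had 6 and 1 (14.6%), Lsm7 had 1 and 4 (11.1%), and Snrpa1 had 2 in each library (10.3%). Lsm3, with 3 and 0 (9.38%), Lsm8, with 3 and 1 (9.09%), Lsm5, with 0 and 1 (7.69%), and Prpf38b, with 1 and 0 (16.7%), passed 5% on 4 reads or fewer. In Lsm7 the second isoform was instead an annotated processed transcript with another first exon, with 4 reads in each library against 13 and 19 for Lsm7-201.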

How the data were processed

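Per the file headers, the deposited tables hold raw read counts per transcript model, with other columns for its exon number and length, and the deposited annotation gives exon positions. Per the text deposited with them, the authors used mm10 and GENCODE M21; which aligner and caller made the models is not given in the sources used here, and the attribute names are those of TALON.

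Reads were summed per gene, and CPM is reads over mouse reads, ERCC spike-ins left out and SIRV spike-ins not used, times 1000000. Genes with at least 20 reads were compared between libraries by Fisher's exact test, adjusted over all genes tested, and log2 ratios add 0.5 reads. Isoform shares used Fisher's exact test or, for 3 or more isoforms, a chi-square test with 10000 simulated tables. New models were matched by gene and intron chain, except that a read share for an event used every model covering it. Exon inclusion counted incomplete matches. Pseudogene copies had at least 90% identity over at least 50% of their length (BLAST+ 2.17.0), and reads of other models were counted at a locus with at least 50% of their bases in member exons. Tests were tried on simulated data with large changes and counting error only. How they perform on small changes or low read counts was not tested. Intervals are Wilson at 95% and cover counting error only, as do floors, since amplified reads are not independent molecules. TMM factors came from edgeR 4.0.16 (R 4.3.3); other steps used Python 3.11.15, pandas 2.3.3, numpy 2.4.6 and scipy 1.17.1.

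The genes, lists and tests were chosen with earlier results of these data known. Named are the 12 highest and 6 lowest members by mean CPM, members called, with 2 or more isoforms, a variable exon, at least 5% of annotated reads on decay or retained-intron transcripts, or a new structure with at least 5 reads in each library, and the 3 highest genes of each other list. One member is not reported here by name. Others, such as Prpf40b and Prpf39, were named after their values were seen.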

Additional observations from a re-analysis of the deposited data

Results flagged for a closer look

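The comparisons above use reads on the strand of each gene, and signal on the opposite strand stood above the 3 reads that a count of 0 allows at 2 genes. At Prpf38b, models on the opposite strand over its exons held 32 reads in replicate 1 and 43 in replicate 2, against 4 and 5 reads of Prpf38b itself. In both libraries these reads were assigned to a spliced model of 2 exons and 3489 bases with the same ends (chr3:108903147-108906983, plus strand, mm10). The counts are per model, so the ends of single reads were not seen. At Lsm12, they held 8 and 16 reads, against 8 and 5 of Lsm12, on a model of 1 exon and 501 bases (chr11:102163055-102163555, plus strand). The strand is the one the deposited annotation gives. The low levels of both genes count sense reads only, and the part of strand assignment in this was not tested.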

How the results depend on the processing

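No paired analysis was possible because the 2 libraries belong to 1 group. The summed level of the 49 genes was 2496 CPM. It moved by more than 1 SD when only annotated transcripts were counted (1847 CPM) or genomic models were left out (2423 CPM). It was 2496 CPM with TMM scaling, and 2537 CPM with similar pseudogene reads added, an alternative chosen after seeing the data. Without either replicate it was 2457 to 2535 CPM, but with 2 libraries leaving 1 out can never move a mean by 1 SD. By gene, 33 of 49 levels moved by 1 SD or more when only annotated transcripts were counted. Each SD rests on 2 values, so that count depends on how close the libraries happened to be in each gene. No member was called between the libraries in any of 5 alternatives, where Sf3b2 had an adjusted exact p of 0.227 to 0.537. With annotated transcripts only, 3 of 37 members had an unadjusted exact p under 0.05. The matching share over all 6509 genes tested in that setting was not counted. Members with 2 or more isoforms numbered 12 of 29 (41.4%, against 36.7% of protein-coding genes). At a 5% share they numbered 15 of 29 (51.7% against 48.7%), and with 2 reads in each library 12 of 29 (41.4% against 35.9%). With annotated transcripts only, where fewer structures count, they numbered 5 of 20 (25.0% against 26.7%). Without replicate 1 they numbered 9 of 30 (30.0% against 30.9%), and without replicate 2, 10 of 36 (27.8% against 32.1%). Whether members lay above or below all genes thus depended on the setting. Variable exons of members numbered 6 to 12 over the 5 alternatives, where those of all protein-coding genes numbered 1371 to 3889. The internal exons that could be called were counted in the main setting only, so no shares are given. Without the 3 most abundant members, new combinations took 7.89% of reads and new splice sites 4.20%. The share on decay and retained-intron transcripts was 1.85% to 3.36% without either replicate, and 1.93% of all reads. No isoform share or exon of a member was called in any alternative tested. A median level of 35.7 CPM rests on about 25 to 30 reads a library (Sf3a2 had 30 and 26), so shares within single genes have wide intervals.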
